A study of Mus musculus with 18 samples.

Results

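Dusp1, Dusp2, Dusp4, Dusp5, Dusp6, Dusp7, Dusp8, Dusp10, Dusp14 and Dusp16 encode dual-specificity MAP kinase phosphatases, enzymes that switch MAP kinases off. They were taken by gene symbol from a table of read counts of mouse dendritic cells, and they make up 10 of its 29875 genes. All 10 passed the filter on low counts, as did 13844 genes in all.

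MAP kinases are activated when an upstream kinase adds phosphate to a threonine and a nearby tyrosine, and a dual-specificity phosphatase removes both. Members differ in the kinases they prefer and in where they act. Dusp1, Dusp2, Dusp4 and Dusp5 are nuclear and are transcribed within minutes of many stimuli. Dusp6 and Dusp7 are cytoplasmic and prefer ERK, whereas Dusp8, Dusp10 and Dusp16 prefer JNK and p38. Dusp14 is a small member without the kinase-docking domain of the others and is known for restraining signalling in T cells. In dendritic cells and macrophages, Dusp1 is known for limiting the cytokine response to bacterial lipopolysaccharide (LPS).

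The cells were dendritic cells differentiated with GM-CSF from bone marrow of wild-type C57Bl6/J mice aged 8 to 12 weeks, and every group, the controls included, had been matured with 200 ng/ml LPS for 24 hours. They were embedded in bovine collagen gels of 1.7, 2.6, 3.5 or 4.4 mg/ml and harvested 5 hours after a gradient of the chemokine CCL19 was applied, or kept in the same chambers with no collagen (suspension). Each of the 4 collagen groups and 2 suspension groups had 3 biological replicates, 18 libraries in all, and the labels do not say whether mice were pooled. The 2 suspension groups are called here by their titles, plus CCL19 and without CCL19; their library names give the opposite CCL19 state, so no direction of a CCL19 effect is drawn. Libraries with one replicate number share a run lane and a date in their names, across all 6 groups.

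Library totals ran from 13062944 to 28059839 counts, so that 3 counts correspond to 0.107 to 0.23 counts per 1000000 (CPM). Markers of dendritic cells (10 genes) summed to 18360 to 59890 CPM in every library, and those of T cells (3 genes) to at most 0.939. Neutrophil markers (9 genes) summed to 633 to 9746 CPM. The 9 eosinophil markers summed to 14.1 to 169.5 CPM in the 12 collagen libraries and to 117.9 to 1360 CPM in the 6 suspension libraries. Of the 8 tested, 8 were called lower in collagen, where 12.4% of all tested genes were. In these bulk libraries, fewer cells of a type and less RNA per cell cannot be told apart.

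RefSeq promoter windows of GRCm38.p6, 250 bases before to 50 after the start, were found for 9 of the 10 members and not for Dusp4. Motifs were searched on both strands. The cAMP response element TGACGTCA, bound by CREB and ATF factors, was found for Dusp1 and Dusp8, in 2 of 9 windows against 1.79% of all 32851 windows. Its half-site TGACG, which overlaps every full element, was found in 5 of 9 windows against 20.8%. The serum response element (CArG box), bound by SRF, was found for Dusp5 alone of the members, as a pair of boxes side by side, against 1.63% of all windows. The GC box GGGCGG was found in 8 of 9 windows against 35.7%. No member window held the AP-1 site TGANTCA, the NF-kB site or the TATA box TATAAA, which 7.81%, 8.46% and 13.6% of all windows held. A match is a string of letters and not a measured site. The 250 bases before the start are shown for the 3 genes with a full cAMP response element or CArG box (Dusp1, Dusp5 and Dusp8), for Dusp16, which rose in collagen and holds a half-site but no full element, and for Dusp6, which fell and holds none of the motifs searched. Capitals mark CArG boxes, cAMP response elements and their half-sites.
Dusp1, chr17:26508473-26508722, minus strand: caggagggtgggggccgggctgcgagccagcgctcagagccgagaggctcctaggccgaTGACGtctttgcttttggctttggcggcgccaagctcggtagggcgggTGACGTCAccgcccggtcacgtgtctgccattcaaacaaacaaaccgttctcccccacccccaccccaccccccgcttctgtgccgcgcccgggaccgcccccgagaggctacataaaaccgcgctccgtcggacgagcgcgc
Dusp5, chr19:53528895-53529144, plus strand: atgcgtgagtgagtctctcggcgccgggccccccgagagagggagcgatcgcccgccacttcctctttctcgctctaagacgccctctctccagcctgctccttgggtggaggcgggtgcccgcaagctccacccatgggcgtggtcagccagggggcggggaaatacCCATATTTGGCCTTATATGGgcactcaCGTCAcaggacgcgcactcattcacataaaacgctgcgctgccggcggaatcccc
Dusp8, chr7:142095285-142095534, minus strand: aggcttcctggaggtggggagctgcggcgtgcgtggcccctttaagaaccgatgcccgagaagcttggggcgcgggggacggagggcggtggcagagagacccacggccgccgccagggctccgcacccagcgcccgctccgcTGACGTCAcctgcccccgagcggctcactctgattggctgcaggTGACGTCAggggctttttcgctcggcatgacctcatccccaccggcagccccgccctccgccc
Dusp16, chr6:134792629-134792878, minus strand: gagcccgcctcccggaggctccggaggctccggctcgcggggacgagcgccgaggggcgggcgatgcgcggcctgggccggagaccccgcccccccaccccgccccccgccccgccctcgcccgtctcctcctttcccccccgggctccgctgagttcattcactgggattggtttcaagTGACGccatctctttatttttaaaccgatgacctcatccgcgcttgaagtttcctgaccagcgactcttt
Dusp6, chr10:99262981-99263230, plus strand: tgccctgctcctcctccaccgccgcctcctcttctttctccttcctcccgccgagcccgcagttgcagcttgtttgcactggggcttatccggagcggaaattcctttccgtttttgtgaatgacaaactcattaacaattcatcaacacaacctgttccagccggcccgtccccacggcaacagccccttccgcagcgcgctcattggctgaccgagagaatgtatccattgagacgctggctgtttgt

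Levels can be compared between genes only per length, here as mean CPM per kb of exon over the 18 libraries. Dusp5 was the most abundant member at 93.2 CPM per kb, followed by Dusp1 at 64.1, and together they held 44.1% and 30.3% of the summed level of the 10 genes. Dusp14 followed at 23.7 CPM per kb and Dusp16 at 14.7. Dusp4 (6.42), Dusp6 (3.34), Dusp2 (3.13) and Dusp10 (1.78) were lower, and Dusp7 (0.646) and Dusp8 (0.378) were lowest, at percentiles 23.1 and 15.9 of the tested genes. The 2 leading genes both encode nuclear phosphatases. Dusp10 varied most between libraries, 127-fold, from 0.2075 to 26.4 CPM, and Dusp1 least, 3.63-fold.

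**Figure D1:**
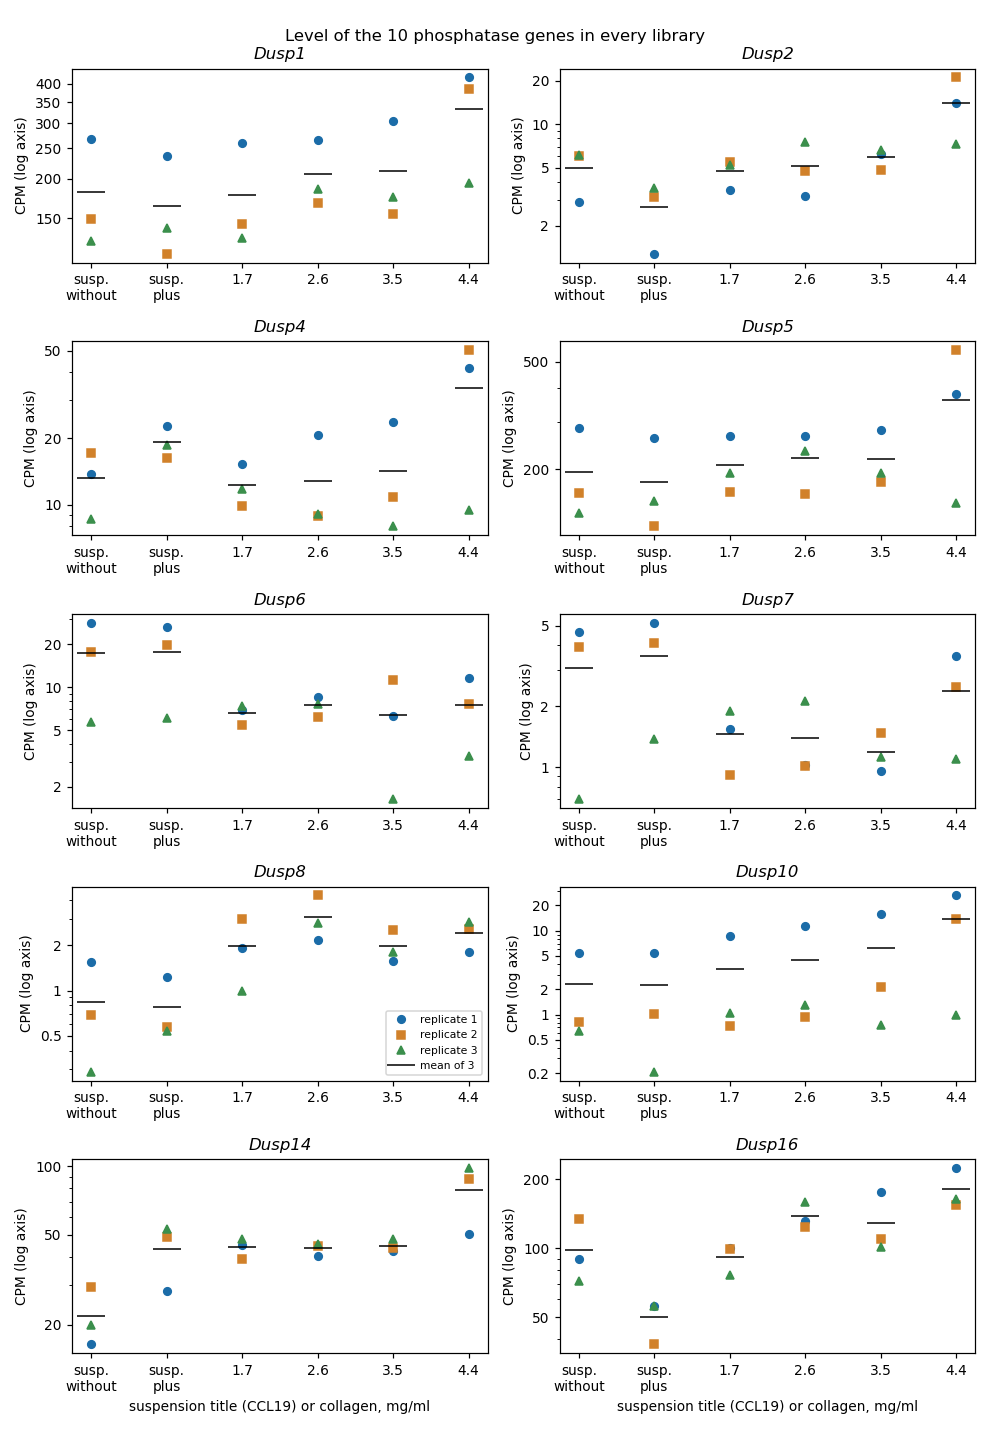
Counts per 1000000 (CPM, log axis) of each of the 10 phosphatase genes in every library, by group, with 1 point per replicate and a bar at the mean of 3. Dusp1, Dusp14 and Dusp16 had their highest value at 4.4 mg/ml within each of the 3 replicates, and Dusp6 was high in suspension in replicates 1 and 2.

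The first question was whether the phosphatases differed between cells in collagen, at any density, and cells in suspension. Dusp2, Dusp8, Dusp14 and Dusp16 rose in collagen and Dusp6 and Dusp7 fell. Both cytoplasmic ERK phosphatases were thus lower, though Dusp7 in 2 of 3 replicates only, and 2 of the 3 phosphatases directed at JNK and p38 were higher. A difference between these classes was not tested. By edgeR's quasi-likelihood test at a false discovery rate (FDR) under 0.1, 6 of the 10 members were called, where 20.2% of all tested genes were. The 4 higher members stand against 7.78% of all genes called higher, and the 2 lower ones against 12.4% called lower. The median log2 fold change of the 10 was 0.56, against 0.0027 over all tested genes. With the replicate number in the model as a block, Dusp1 and Dusp10 also rose and 8 members were called. The share of all genes called then was 34.8%, with 15.6% higher and 19.3% lower. The range of the 12 collagen libraries overlapped that of the 6 suspension libraries for every member, whereas 2.02% of all tested genes (280) had ranges that did not overlap.

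Dusp16, a phosphatase of JNK and p38 (chromosome 6, bases 134715468 to 134792625 of GRCm38, minus strand), had the lowest adjusted p of the members. Its level was 56.0, 38.0 and 56.1 CPM in replicates 1 to 3 of the suspension titled plus CCL19 and 90.0, 134.0 and 72.2 CPM in the suspension titled without CCL19. The 12 collagen libraries ran from 76.7 CPM through a median of 127.9 to 224.0. The ranges overlapped, and the 4 lowest of the 18 values were all from suspension. Its log2 fold change was 0.90 ± 0.19 (SE, adjusted p = 0.00564), and it was higher in collagen in 3 of 3 replicates. It was called in each of the 18 fits that left out 1 library.

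Dusp8, also directed at JNK and p38 and abundant in brain (chromosome 7, bases 142079490 to 142095843, minus strand), had the largest change of the called members but a low level. In suspension it stood at 1.23, 0.572 and 0.539 CPM in the group titled plus CCL19 and at 1.545, 0.683 and 0.290 CPM in the group titled without CCL19. The collagen libraries ran from 0.998 CPM through 2.345 to 4.27. Every one of the 12 collagen libraries was above both suspension libraries of its own replicate number. It rose by 1.50 ± 0.39 log2 (SE, adjusted p = 0.0175), from counts of 5 to 89 per library. Within replicates the difference in mean log2 CPM was 0.40 in replicate 1, 2.09 in replicate 2 and 2.02 in replicate 3. The call was lost when all libraries of replicate number 2 or 3 were left out.

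Dusp14 (chromosome 11, bases 84048041 to 84069261, minus strand) was at 28.3, 48.8 and 53.0 CPM in the suspension titled plus CCL19 and at 16.4, 29.5 and 20.0 CPM in that titled without CCL19. In collagen it ran from 38.9 through 45.4 to 98.3 CPM. The 9 libraries from 1.7 to 3.5 mg/ml were close to each other, between 38.9 and 47.8 CPM, and overlapped the suspension titled plus CCL19 but not the other suspension group. The rise was 0.72 ± 0.19 log2 (SE, adjusted p = 0.0197), in 3 of 3 replicates. The call held in each of the 18 fits without 1 library. It was lost when all libraries of replicate number 1, 2 or 3 were left out.

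Dusp2, a nuclear phosphatase abundant in activated leukocytes (chromosome 2, bases 127336159 to 127338376, plus strand), was at 1.28, 3.15 and 3.61 CPM in the suspension titled plus CCL19 and at 2.90, 6.01 and 6.14 CPM in that titled without CCL19. The collagen libraries ran from 3.18 through 5.87 to 21.1 CPM, and the highest pair, 13.9 and 21.1 CPM, was at 4.4 mg/ml. Its rise was 0.88 ± 0.30 log2 (SE, adjusted p = 0.0649), in 3 of 3 replicates. The call was lost without replicate 1 of either suspension group or without replicate 2 of the group titled plus CCL19, and with no filter on low counts (adjusted p = 0.1225). It was also lost when all libraries of replicate number 1, 2 or 3 were left out.

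Dusp6, the cytoplasmic ERK phosphatase that ERK signalling itself induces (chromosome 10, bases 99263231 to 99267489, plus strand), fell. It was at 26.7, 20.0 and 6.10 CPM in the suspension titled plus CCL19 and at 28.4, 17.7 and 5.74 CPM in that titled without CCL19. In collagen it ran from 1.64 through 7.14 to 11.7 CPM. Suspension replicates 1 and 2 were above every collagen library, and suspension replicate 3 lay among them. The log2 fold change was -1.32 ± 0.39 (SE, adjusted p = 0.0333), with differences within replicates of -1.75, -1.35 and -0.48 log2 CPM. Without replicate 1 of either suspension group the call was lost, but with the replicate block it held in each of the 18 fits without 1 library (-1.14 ± 0.29, adjusted p = 0.00806).

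Dusp7, a close relative of Dusp6 (chromosome 9, bases 106368632 to 106375724, plus strand), was also lower in collagen. It was at 5.16, 4.08 and 1.37 CPM in the suspension titled plus CCL19, at 4.64, 3.92 and 0.696 CPM in that titled without CCL19, and at 0.917 through 1.30 to 3.52 CPM in collagen. The differences within replicates 1, 2 and 3 were -1.61, -1.48 and 0.56 log2 CPM. Over all libraries the log2 fold change was -1.09 ± 0.39 (SE, adjusted p = 0.0738). It was called in 9 of the 18 fits without 1 library, and it was not called with offsets for GC content and length (-0.81, adjusted p = 0.186). Over the 18 libraries, after the mean of each replicate number was removed, Dusp6 and Dusp7 had a Pearson r of 0.782, from libraries that share their preparation and depth.

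The eosinophil markers were lower in collagen as well. They summed to 149.2, 1360 and 950.0 CPM in replicates 1 to 3 of the suspension titled plus CCL19 and to 117.9, 188.4 and 505.4 CPM in the other suspension group. Macrophage and monocyte markers (7 genes) summed to 1462 to 6980 CPM in suspension and 1570 to 9219 CPM in collagen. Without the block edgeR and DESeq2 called 0 of the 7 in collagen against suspension (0 and 1 at an unadjusted p under 0.05), with a median log2 fold change of 0.46. With the block 4 of them (Lyz2, Adgre1, Cd14 and Fcgr1) were higher in collagen and at 4.4 mg/ml, with medians of 0.50 and 0.76 over the 7. Of the 10 dendritic cell markers, edgeR called Flt3 lower in collagen in both fits, and Itgax higher with the block alone. At 4.4 mg/ml without the block edgeR called 0 of the 10 (2 at an unadjusted p under 0.05), and DESeq2 called 2. With the block Flt3 was lower at 4.4 mg/ml by edgeR, and Cd86 and Itgax were higher. Of 9 neutrophil markers 2 were lower in collagen in both fits (Retnlg and Ly6g). Of 6 basophil and mast cell markers 2 were lower with the block alone, and of 4 B cell markers 1 was. Of all genes 12.4% were called lower in collagen without the block and 19.3% with it. The shares called higher were 7.78% and 15.6%. At 4.4 mg/ml with the block, 16.2% of all genes were called lower and 15.8% higher. The counts of these short lists are not read as a change in cell types. Of the 3 tested fibroblast markers, edgeR and DESeq2 called 0 in either fit in collagen against suspension or at 4.4 mg/ml. None of the 3 had an unadjusted p under 0.05 in these comparisons. For any difference among the 6 groups edgeR called Col3a1 in both fits, where 4.9% and 24.3% of all genes were called. The 4 fibroblast markers summed to a median of 2.82 CPM over all libraries and to 113.4 CPM in 1 library at 2.6 mg/ml. The part of other cell types in the changes of the 10 genes was not tested.

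Dusp10, a phosphatase of p38 and JNK, differed widely between replicates. Replicate 1 was at 5.47 and 5.45 CPM in the suspension groups and at 8.55, 11.4, 15.7 and 26.4 CPM from 1.7 to 4.4 mg/ml. In suspension, replicates 2 and 3 lay between 0.2075 and 1.00 CPM. In collagen they lay between 0.733 and 2.11 CPM, apart from 4.4 mg/ml replicate 2 at 13.9 CPM. Within replicates, Dusp10 was higher in collagen by 1.36, 1.17 and 1.19 log2 CPM. The log2 fold change was 1.40 ± 0.91 (SE, adjusted p = 0.339) without the block and 1.47 ± 0.39 (adjusted p = 0.00909) with it.

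Of the abundant nuclear members, Dusp1 ran from 115.6 through 144.6 to 267.3 CPM in suspension and from 129.8 through 189.7 to 419.2 CPM in collagen. It was higher in collagen in 3 of 3 replicates, and its log2 fold change was 0.39 ± 0.26 (SE, adjusted p = 0.351) without the block and 0.41 ± 0.15 (adjusted p = 0.0493) with it. The blocked call was lost without replicate 2 of the suspension titled plus CCL19 or replicate 3 of the other suspension group. Dusp1 overlaps Ergic1 on the opposite strand, and whether the counting used strand is not given, so its level may hold reads of Ergic1, which had up to 5827 counts. Dusp5 had a log2 fold change of 0.39 ± 0.26 (SE, adjusted p = 0.363), or 0.43 ± 0.21 (adjusted p = 0.135) with the block. Dusp4 had a log2 fold change of 0.06 ± 0.33 (SE, adjusted p = 0.932), with a 95% interval from -0.58 to 0.70, and it was higher in collagen in 1 of 3 replicates.

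**Figure D2:**
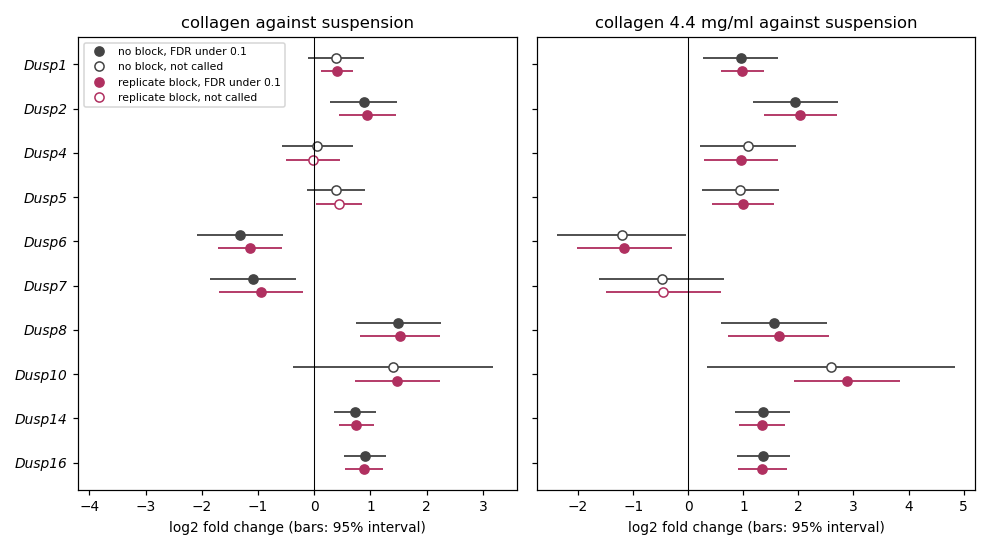
Log2 fold change of each phosphatase gene in all collagen (left) and in 4.4 mg/ml collagen (right) against suspension, with bars of the 95% interval, in the fits without and with the replicate block; filled points passed an FDR of 0.1. Dusp2, Dusp8, Dusp14 and Dusp16 passed in every fit shown, Dusp6 and Dusp7 lay below 0, and the bars of Dusp10 were much shorter with the block.

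The gels were then compared with suspension one density at a time, with the same suspension libraries in each comparison. At 1.7 mg/ml no member was called in either fit (0.0361% of all genes without the block, 2.91% with it). Without the block, 2 members had an unadjusted p under 0.05 in edgeR, namely Dusp6 (log2 -1.41 ± 0.61, adjusted p = 0.584) and Dusp8 (log2 1.27 ± 0.50, adjusted p = 0.538), and DESeq2 called none. DESeq2 with the block, chosen after seeing the data, called Dusp8. At 2.6 mg/ml Dusp8 (1.90 ± 0.49) and Dusp16 (0.97 ± 0.25) rose in both fits, with adjusted p of 0.0467 and 0.0465 without the block. The share of all genes called was 7.87% without the block and 21.6% with it. At 3.5 mg/ml Dusp16 alone rose without the block (0.88 ± 0.25, adjusted p = 0.0797, 4.9% of all genes called), and it was not called with no filter on low counts (adjusted p = 0.210). With the block Dusp8 and Dusp14 rose too and Dusp6 fell by 1.43 on the log2 scale, with 18.4% of all genes called.

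The densest gel showed the broadest rise. At 4.4 mg/ml against suspension, Dusp1, Dusp2, Dusp8, Dusp14 and Dusp16 rose, 5 of the 10 members, where 14.8% of all tested genes were called, 6.55% higher and 8.29% lower. The median log2 fold change of the 10 genes was 1.22, against 0.0050 over all tested genes. With the block Dusp4, Dusp5 and Dusp10 rose as well and Dusp6 fell, so that 9 members were called, all but Dusp7. Of all genes 31.9% were called in that fit, 15.8% higher and 16.2% lower. DESeq2 without the block called 7 members, with Dusp4 and Dusp5 added to the 5, where 20.3% of all genes were called. Without the block, edgeR with the size factors of DESeq2 called 6, with Dusp5 added, where 14.9% of all genes were called.

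Dusp2 had the largest called change without the block, to 13.9, 21.1 and 7.34 CPM in replicates 1 to 3, each above every suspension library. Its log2 fold change was 1.94 ± 0.39 (SE, adjusted p = 0.00692), or 3.84-fold. Dusp16 stood at 224.0, 155.1 and 163.5 CPM, also above every suspension library, and rose 2.57-fold (log2 1.36 ± 0.25, adjusted p = 0.00359). Dusp14 stood at 50.2, 87.6 and 98.3 CPM, of which replicate 1 lay within the range of suspension, and rose 2.55-fold (log2 1.35 ± 0.25, adjusted p = 0.00417). These 3 genes were called in each of the 18 fits without 1 library, in both models. With all libraries of replicate number 2 left out, none of them was called, where 0.751% of all genes were.

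Dusp1 was at 419.2, 384.9 and 193.7 CPM at 4.4 mg/ml. Replicates 1 and 2 were above every suspension library and replicate 3 was above those of its own number. Its log2 fold change was 0.95 ± 0.35 (SE, adjusted p = 0.0964), a call held in 7 of the 18 fits without 1 library, or 0.98 ± 0.20 (adjusted p = 0.00207) with the block and then in 18 of 18. Dusp8 was at 1.805, 2.56 and 2.85 CPM and rose by 1.55 ± 0.49 log2 (adjusted p = 0.0586). It was called in 13 of the 18 fits, and lost without any 1 of the 4.4 mg/ml libraries or without replicate 2 or 3 of the suspension titled plus CCL19.

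The other nuclear members and Dusp10 were highest in replicates 1 and 2. Dusp5 was at 379.4, 551.7 and 149.9 CPM, with a log2 fold change of 0.94 ± 0.36 (SE, adjusted p = 0.110) without the block and 0.99 ± 0.29 (adjusted p = 0.0191) with it. Dusp4 was at 41.6, 50.4 and 9.49 CPM, with 1.09 ± 0.44 (adjusted p = 0.135) and 0.95 ± 0.34 (adjusted p = 0.0526). Dusp10 was at 26.4, 13.9 and 0.999 CPM, with 2.59 ± 1.15 (adjusted p = 0.170) and 2.88 ± 0.49 (adjusted p = 0.000535). In replicate 3 the 4.4 mg/ml gel differed from suspension by 0.04 log2 CPM for Dusp5, by -0.42 for Dusp4 and by 1.19 for Dusp10. The 4.4 mg/ml library of replicate 2 held the highest value of all 18 libraries for Dusp2, Dusp4 and Dusp5. Without it, 3 members were called with no block (Dusp2, Dusp14 and Dusp16) and 6 with the block, of which Dusp4, Dusp5 and Dusp6 were no longer part. Of all genes 10.1% were called in the fit with no block and 25.1% in that with the block. With the block, Dusp4 was also lost without replicate 1 of the 4.4 mg/ml gel or without replicate 1 or 2 of the suspension titled plus CCL19 or replicate 1 of the other suspension group.

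Dusp6 at 4.4 mg/ml was at 11.7, 7.60 and 3.30 CPM, lower than both suspension libraries of its replicate in each, with a log2 fold change of -1.21 ± 0.60 (SE, adjusted p = 0.223) without the block and -1.16 ± 0.44 (adjusted p = 0.0644) with it. The blocked call was lost without replicate 2 or 3 of the 4.4 mg/ml gel or without replicate 1 of either suspension group. Dusp7 was at 3.52, 2.48 and 1.10 CPM, with a log2 fold change of -0.48 ± 0.58 (SE, adjusted p = 0.644) and a 95% interval from -1.61 to 0.65.

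**Figure D3:**
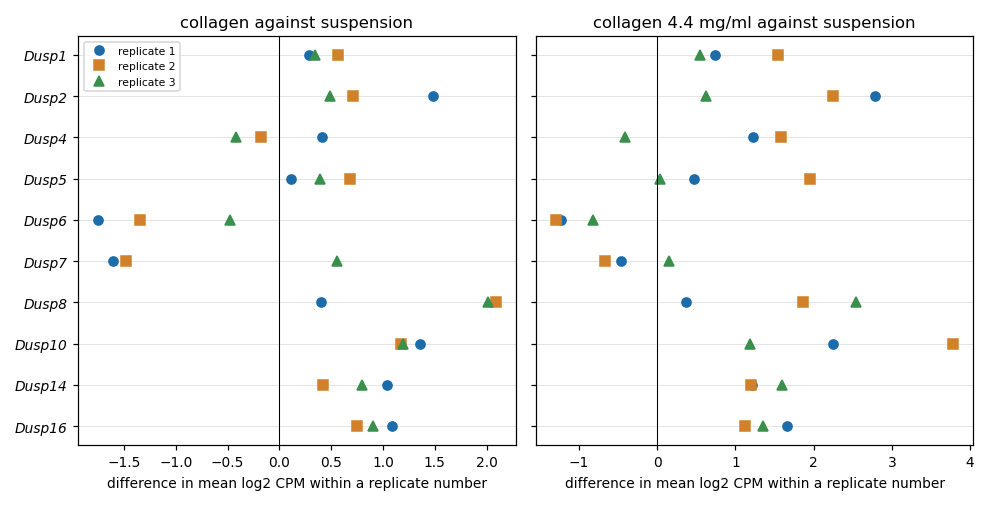
Difference in mean log2 CPM between collagen and the 2 suspension libraries within each replicate number, for all collagen (left) and the 4.4 mg/ml gel (right). Dusp1, Dusp2, Dusp5, Dusp8, Dusp10, Dusp14 and Dusp16 were above 0 in all 3 replicates in both panels, and Dusp7 changed sign in replicate 3.

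Within the gels, the slope over density asked whether the genes followed the collagen concentration. Without the block edgeR called no member (0.00722% of all genes), nor did DESeq2, and 4 members had an unadjusted p under 0.05. These were Dusp2, Dusp4, Dusp14 and Dusp16, with slopes of 0.54, 0.50, 0.28 and 0.31 log2 per mg/ml. With the block Dusp2 alone rose with density, by 0.57 ± 0.145 log2 per mg/ml (SE, adjusted p = 0.0869, 1.45% of all genes called). Dusp1 had a slope of 0.31 ± 0.08 (adjusted p = 0.100) and Dusp10 of 0.76 ± 0.21 (adjusted p = 0.118) in that fit. Without the 4.4 mg/ml library of replicate 2, no member was called in either fit (0% of all genes without the block, 0.313% with it). From the loosest to the densest gel, Dusp1, Dusp2, Dusp14 and Dusp16 were higher in 3 of 3 replicates, by 0.58 to 1.42, 0.47 to 1.94, 0.15 to 1.17 and 0.65 to 1.16 log2 CPM. Dusp14 was nearly level up to 3.5 mg/ml and higher at 4.4 mg/ml, at 44.0, 43.5, 44.6 and 78.7 CPM on average. Dusp8 showed no such course, with group means of 1.97, 3.07, 1.96 and 2.40 CPM from the loosest to the densest gel and a slope of 0.02 ± 0.20.

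The order of the 6 group means was mostly not resolved by 3 replicates. Neighbouring groups in that order had overlapping ranges in 46 of 50 pairs over the 10 genes. The share of such pairs over all tested genes was not computed, so this count is not read as a trait of the 10 genes. The 4 exceptions were the step from the 3.5 to the 4.4 mg/ml gel for Dusp2 and for Dusp14, that from the suspension titled without CCL19 to the 3.5 mg/ml gel for Dusp8, and that from the suspension titled plus CCL19 to the 1.7 mg/ml gel for Dusp16. In one test of any difference among the 6 groups, Dusp2, Dusp14 and Dusp16 were called, where 4.9% of all genes were. With the block Dusp1, Dusp4, Dusp8 and Dusp10 were added to them, where 24.3% of all genes were called.

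Between the 2 suspension groups, edgeR called no gene in either fit, 0% of those tested, with 855 genes at an unadjusted p under 0.05 without the block and 1960 with it. DESeq2 without the block called none as well. Dusp14 and Dusp16 had the lowest unadjusted p of the members and lay in opposite directions. Dusp14 was higher in the group titled plus CCL19 in each replicate, with a log2 difference of 0.98 ± 0.30 (SE, adjusted p = 0.761 by edgeR). Dusp16 was lower in that group in each replicate, with no overlap, and had a log2 difference of -0.98 ± 0.30 (SE, adjusted p = 0.761 by edgeR). Only DESeq2 with the replicate block, chosen after seeing the data, called these 2 genes of the 10.

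The rest of the MAP kinase pathway was taken from lists of its kinases, targets and inhibitors. Of 28 tested kinases of the cascade, 4 were called in collagen against suspension, a smaller share than the 20.2% of all genes called. Map3k8, the kinase that activates ERK downstream of Toll-like receptors, rose from 15.95 ± 6.02 CPM (SD, n = 6) to 38.5 ± 23.0 CPM (SD, n = 12), a log2 fold change of 1.16 ± 0.26 (SE, adjusted p = 0.00928). Map3k5 (ASK1) and Map3k4, both upstream of JNK and p38, fell by 1.25 and 0.66 on the log2 scale, and Mapk14, which encodes p38 alpha, fell too. With the block 9 of the 28 were called, 4 higher and 5 lower, a share close to the 34.8% of all genes called.

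Of 10 tested kinases that MAP kinases activate, Rps6ka2 (log2 -1.09) and Rps6ka4 (log2 -0.90) fell and Rps6ka3 (log2 0.69) rose, where 20.2% of all genes were called. With the block 6 of the 10 were called, 2 higher and 4 lower, where 34.8% of all genes were called. Of 11 other dual-specificity phosphatases, Dusp22 (log2 -0.75 ± 0.29, adjusted p = 0.0993) and Dusp12 (log2 -0.74 ± 0.24, adjusted p = 0.0544) fell and none rose, a share close to the 20.2% of all genes called. Of 6 phosphatases of other families that act on MAP kinases, 4 rose and none fell, with a median log2 fold change of 0.47 over the 6. Ppm1d, a p53-induced phosphatase of p38, rose from 20.2 ± 3.41 CPM (SD, n = 6) to 68.4 ± 46.7 CPM (SD, n = 12), and the catalytic subunit gene Ppp2ca rose by 0.67 log2. With the block all 6 of these rose. Of all genes 7.78% were called higher in collagen without the block and 15.6% with it.

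Of 12 feedback inhibitors of ERK signalling, such as the Sprouty genes, edgeR called none in collagen without the block (1 at an unadjusted p under 0.05). With the block it called 4, all higher (Rasa2, Errfi1, Il17rd and Spry3). That share was near the 34.8% of all genes called, but 15.6% of all genes were called higher. DESeq2 called 1 in collagen without the block. At 4.4 mg/ml edgeR called Il17rd higher without the block, where 6.55% of all genes were called higher. With the block it called Errfi1 and Il17rd higher, where 15.8% of all genes were. The 24 immediate early genes, transcribed in response to MAP kinase signals, included 8 that rose and 1 that fell (Klf2), among them Egr2 (log2 1.80 ± 0.29, adjusted p = 0.00109) and Ier3 (log2 1.86 ± 0.56, adjusted p = 0.0385). At 4.4 mg/ml 15 of the 24 rose and 1 fell, with a median log2 fold change of 1.50, where that of the 10 phosphatases was 1.22. The median of all genes was 0.005. Of all genes 7.78% were called higher in collagen against suspension and 6.55% at 4.4 mg/ml. With the block 20 of the 24 were called in collagen, 18 of them higher, where 34.8% of all genes were called. At 4.4 mg/ml 21 were called with the block, 20 of them higher, where 31.9% of all genes were called. Factors that bind AU-rich elements, which the Dusp1 messenger RNA is known to carry, speed the decay of such transcripts. Of 6 of them edgeR called none in collagen against suspension, in either fit, and 0 had an unadjusted p under 0.05. DESeq2 called 0 without the block and 1 with it. At 4.4 mg/ml edgeR called 0 of the 6 without the block and 2 with it, Zfp36 and Zfp36l2, both higher, where 31.9% of all genes were called, and with the block Zfp36l2 was also called for any difference among the groups.

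**Figure D4:**
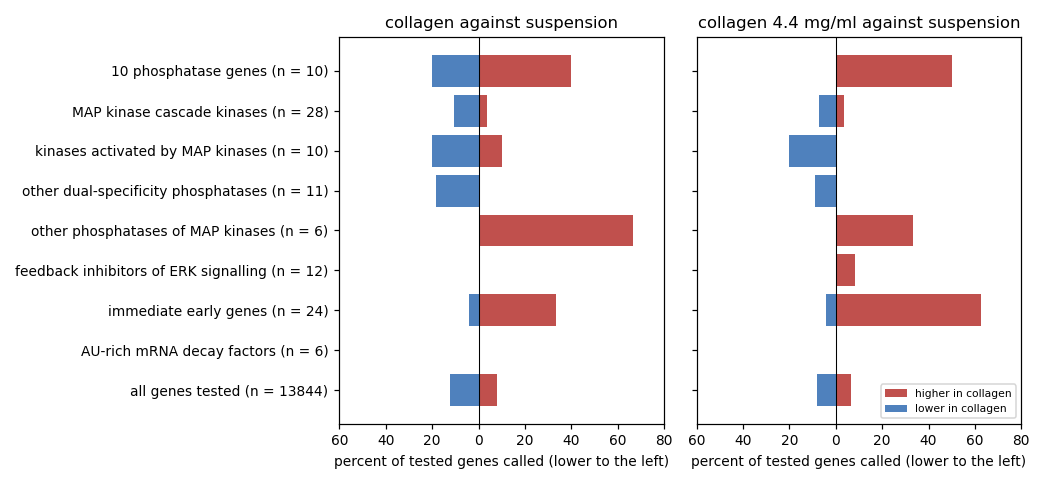
Percent of the tested genes of each list called higher (right of 0) or lower (left of 0) at an FDR under 0.1 without the replicate block, in all collagen and in 4.4 mg/ml collagen against suspension. Of the 10 phosphatase genes, 4 were higher and 2 lower in the left panel and 5 were higher in the right panel, and the lowest bar gives all 13844 genes.

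The likeness of members to each other and to other genes was described by Pearson's r of log2 CPM over the 18 libraries after removing the mean of each replicate number. These libraries share preparation and depth differences, and differences between the groups enter r. Dusp1 and Dusp5 were the most alike pair (0.891), and Dusp1, Dusp2, Dusp5 and Dusp10 had r between 0.729 and 0.891 with each other. Dusp6 lay apart from most members and had its lowest r with Dusp8 (-0.528). Among all tested genes, those most like Dusp1 were Rasgef1b (0.932) and Ppp1r15a (0.927). Dusp10 was most like Hbegf (0.936), which encodes a growth factor, and Slc25a25 (0.918). Dusp16 had the highest values, with Baz1a (0.968) and the cochaperone gene Dnaja1 (0.966). Dusp2 was most like Mylip (0.889) and the immediate early gene Ier5 (0.888), and Dusp5 like Pkdcc (0.915) and Vasn (0.910). Dusp8 came closest to Frmd6 (0.929) and A230083G16Rik (0.926), and Dusp14 to Frat2 (0.909) and Nrg1 (0.906). Dusp4 was nearest to Mcoln1 (0.871) and the cytokine gene Il27 (0.861). Dusp6 was nearest to Tex2 (0.894) and 2610507I01Rik (0.886), and Dusp7 to Tcf7l2 (0.835) and Nkiras1 (0.825).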

How the data were processed

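RNA of bulk cell samples was sequenced as single-end reads from a stranded mRNA kit. Per the labels, reads were aligned with STAR 2.7.0f to GRCm38. The deposited values are whole-number counts per Ensembl gene (29875 genes, 18 libraries); the authors' methods name RSEM for TPM values, and which tool and strand setting made the count table is not given in the sources used here. Symbols, exon lengths and GC content came from GENCODE M21 (29866 genes matched). Genes were filtered with filterByExpr and scaled by TMM in edgeR 4.0.16 (R 4.3.3). CPM values are counts per 1000000 of the scaled totals, and log2 CPM adds a prior count of 2. Contrasts were tested with edgeR's quasi-likelihood F-test in 1 fit of all 6 groups, with Benjamini-Hochberg adjustment over 13844 genes at an FDR of 0.1. Collagen against suspension is the mean of the 4 collagen groups minus that of the 2 suspension groups. P-values set each difference against the spread between these replicates. Without the block that spread also holds the differences between replicate numbers. The 95% intervals are approximate, as the log2 fold change plus or minus the SE times a normal quantile. They are narrower than the F-test implies. For Dusp6 at 4.4 mg/ml without the block the interval ran from -2.39 to -0.03, where the F-test gave an unadjusted p of 0.0599.

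The same replicate number marks a shared lane and date in the library names, which pairs libraries across groups. Deviations from the group means had a mean r of 0.434 between libraries of the same number (lowest -0.149) and -0.214 between those of different number and group. The biological coefficient of variation was 49% without the replicate number as a block in the model and 33.1% with it. Other alternatives were DESeq2 1.42.0, its size factors, GC and length offsets, no filter, an FDR of 0.05, fits of the compared groups alone, and leaving out replicates or single libraries. The scripts were tested on simulated data. The 10 genes and the pathway and marker lists were chosen with earlier results of these data known. All 10 genes are described; from each pathway list at most 3 genes were to be named with values, those called in collagen against suspension with 1 sign in 3 of 3 replicates, by size, and the other list genes named here were named after their values were seen. For each gene the 2 most similar genes are given.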

Additional observations from a re-analysis of the deposited data

How the results depend on the processing

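Each limit here is a count of the 10 genes called. For any difference among the 6 groups, 3 became 7 with the replicate block, 7 with the block and GC and length offsets, 6 with no filter and 0 without replicate 1, 2 or 3 in turn. For collagen against suspension, 6 became 1 to 3 without a replicate number and 3 to 6 without 1 library, or 6 to 9 without 1 library with the block. For the 4.4 mg/ml gel, 5 became 9 with the block or the block and offsets, 3 in a fit of its own groups or at an FDR of 0.05, 0 to 7 without a replicate number (0 without replicate 2) and 3 to 7 without 1 library, or 6 to 9 with the block (8 without replicate 1 of that gel or without replicate 2 of the suspension titled plus CCL19). For 3.5 mg/ml, 1 became 4 with the block, 6 with block and offsets, 2 with offsets alone or no filter, and 0 in its own groups, at an FDR of 0.05 or without any replicate number. For 2.6 mg/ml, 2 became 4 with block and offsets, 0 in its own groups and 0 to 2 without a replicate number. For the density slope, 0 became 1 with the block, 5 with block and offsets and 1 with no filter. With block and offsets 26.2% of all genes were called for any difference and 4.75% for the slope. At 4.4, 3.5 and 2.6 mg/ml that fit called 34.3%, 17.2% and 24.4% of all genes. With no filter 6.67% of all genes were called for any difference, 2.36% at 3.5 mg/ml and 0.465% for the slope. Fits of the compared groups alone called 11.9%, 2.53% and 1.98% of all genes at 4.4, 3.5 and 2.6 mg/ml. An FDR of 0.05 left 8.88% at 4.4 and 1.59% at 3.5 mg/ml. Without replicate 1, 2 or 3, 1.29%, 0% and 0% of all genes were called for any difference. Those fits called 11.8%, 0.751% and 6.92% at 4.4 mg/ml. At 3.5 mg/ml they called 0.0218%, 0% and 0.0146%, and at 2.6 mg/ml 9.6%, 0% and 0.0293%. Without replicate 1, 2 or 3, 11.3%, 4.47% and 10.5% of all genes were called in collagen against suspension. The members called there were Dusp8 and Dusp16 without replicate 1 and Dusp16 alone without replicate 2. Without replicate 3 they were Dusp6, Dusp7 and Dusp16. Chosen after seeing the data, DESeq2 with the replicate block called 9 for any difference, 9 at 4.4, 6 at 3.5 and 1 at 1.7 mg/ml, 6 for the slope and 2 between the suspension groups. Of all genes it called 38.3%, 36.3%, 23.1%, 7.91%, 5.86% and 1.4% in these comparisons, in that order. The block without the 4.4 mg/ml library of replicate 2, also chosen afterwards, called 5 for any difference, 5 at 3.5 and 4 at 2.6 mg/ml. Of all genes it called 24.7%, 22% and 25.5% in these 3. Equal counts could hold other genes. With no filter, Dusp6 and Dusp10 replaced Dusp16 at 3.5 mg/ml, Dusp10 replaced Dusp2 in collagen against suspension, and at 4.4 mg/ml Dusp8 was lost while Dusp4, Dusp6 and Dusp10 were called. With offsets alone, Dusp2 and Dusp14 were lost for any difference and Dusp8 was called. The cause of these shifts was not tested. The block changed no other call of the 10 genes than those given with each comparison.

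Of 410 single-gene alternatives, 322 kept direction and side of the threshold, 46 passed it newly, 31 no longer passed and 11 changed sign. None of the 11 was called. For Dusp4 in collagen against suspension the sign changed with the block (-0.022), without replicate 1 (-0.18, against 0.18 without replicate 3), and without the 4.4 mg/ml library of replicate 2 (-0.043, or -0.20 with the block). For the slope of Dusp6 it changed with the block (-0.089), the block and offsets (-0.078), without replicate 1 (-0.069) or 2 (-0.086, against 0.24 without replicate 3), with the block and without that library (-0.075), and with DESeq2 and the block (-0.079). For the slope of Dusp8 it changed without replicate 3 (-0.13, against 0.16 without replicate 2). Depth limits Dusp7, Dusp8 and Dusp10 most, whose lowest counts were 12, 5 and 5.

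Counts over all 13844 genes moved as well. Without the block and with it, 679 and 3363 genes were called for any difference, 2790 and 4823 for collagen against suspension, 1 and 201 for the slope, and 5 and 403, 1090 and 2990, 679 and 2551, and 2054 and 4420 for the gels from 1.7 to 4.4 mg/ml. Over the alternatives other than the fits that left out each library in turn, which were also chosen after seeing the data, these counts ranged from 0 to 5298, 631 to 5401, 0 to 811, 0 to 1095, 0 to 3665, 0 to 3200 and 106 to 5023, and that between the suspension groups from 0 to 194.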
